A study of Mus musculus with 2 samples.

Results

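Pseudogene copies of ribosomal protein genes were measured in nuclear RNA of mouse macrophages. The members were all genes whose symbol is that of a ribosomal protein of the large subunit (Rpl, Rplp) or the small subunit (Rps) with the ending -ps and an optional number. The rule took 300 of the 55536 annotated genes, and no measured value entered it. The libraries hold total RNA, depleted of ribosomal RNA, of the nucleoplasm of C57BL/6J macrophages (BMDM), which are primary phagocytes differentiated from marrow. All cells had received lipid A, the membrane anchor of bacterial lipopolysaccharide and a ligand of TLR4, at 100 ng/ml for 12 h. They were then washed out for 12 h and given the same dose again for 90 min. The 2 libraries form 1 group, so no comparison of conditions and no p-value was possible. The labels number them as biological replicates but name a single donor, and the spread between them may be technical. Replicate 1 started from 1 µg of RNA and replicate 2 from 500 ng, a difference that cannot be told apart from other differences between the replicates. The labels give neither sex nor age, and elsewhere call the material a nuclear fraction.

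A processed pseudogene arises when a spliced mRNA is copied back into DNA and inserted elsewhere in the genome. The copy carries no introns and usually none of the promoter of its parent, and it drifts from the parent's sequence over time. Ribosomal protein genes are short and very strongly transcribed, and have left many such copies in mammalian genomes. A sequencing read from a young copy can match its parent equally well, so a program has to divide shared reads between them. A copy that lies in an intron of another gene is also part of that gene's unspliced transcript, which is common in nuclear RNA.

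The members fell into 62 families by the parent's name. In 60 of these, holding 298 members, the annotation has a protein-coding gene of that symbol, called the parent here. The largest families were those of Rpl31, a large-subunit protein, and Rps12, a small-subunit protein, with 24 members each, and 19 families had 1 member. The annotation lists 287 members as processed pseudogenes, 7 as transcribed processed pseudogenes and 6 as protein-coding genes. A single exon made up 289 members, and the median length was 457.5 bases, between 151 and 1347. Chromosome X held 35 members, 11.7% of them, against 9.19% of the other processed pseudogenes and 4.71% of all genes.

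To show how far copies have drifted, windows of members from identical to clearly diverged are given beside the closest coding sequence. Each window is the first ungapped run of 120 bases of the alignment inside the coding sequence, or the longest run where none reaches 120. Windows are written 5′ to 3′ on the sense strand, from the annotation's transcripts on mm10, and capitals mark the bases that differ. The Rps12-ps3 window, chr19:59322371-59322490 on the plus strand, matched bases 1 to 120 of the Rps12 coding sequence without a difference. The Rpl36-ps2 window, chr11:76601319-76601438 on the plus strand, held 1 difference from Rpl36, G72C, with the parent's base first and positions counted from 1 at the start of the window. The Rpl31-ps24 window, chr1:64934491-64934610 on the plus strand, held 11 differences. The Rpl28-ps2 window, chr3:83686721-83686837 on the plus strand, spans 117 bases and held 10 differences.
Rps12-ps3: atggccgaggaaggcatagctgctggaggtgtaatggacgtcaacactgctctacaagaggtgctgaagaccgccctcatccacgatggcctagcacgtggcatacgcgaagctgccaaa
Rps12: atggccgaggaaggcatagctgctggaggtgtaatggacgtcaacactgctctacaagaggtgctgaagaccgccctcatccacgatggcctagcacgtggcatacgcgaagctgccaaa
Rpl36-ps2: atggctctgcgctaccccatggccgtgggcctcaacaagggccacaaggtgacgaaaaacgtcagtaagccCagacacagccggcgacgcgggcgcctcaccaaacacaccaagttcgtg
Rpl36: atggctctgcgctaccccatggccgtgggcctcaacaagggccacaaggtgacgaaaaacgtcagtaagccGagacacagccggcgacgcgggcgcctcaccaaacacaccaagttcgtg
Rpl31-ps24: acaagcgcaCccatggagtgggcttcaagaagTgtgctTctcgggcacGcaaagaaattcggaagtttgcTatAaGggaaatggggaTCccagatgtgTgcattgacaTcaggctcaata
Rpl31: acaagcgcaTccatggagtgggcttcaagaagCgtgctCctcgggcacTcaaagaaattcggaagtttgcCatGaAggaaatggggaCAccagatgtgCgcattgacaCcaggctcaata
Rpl28-ps2: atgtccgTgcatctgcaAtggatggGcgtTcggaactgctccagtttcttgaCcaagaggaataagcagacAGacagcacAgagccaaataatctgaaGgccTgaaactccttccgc
Rpl28: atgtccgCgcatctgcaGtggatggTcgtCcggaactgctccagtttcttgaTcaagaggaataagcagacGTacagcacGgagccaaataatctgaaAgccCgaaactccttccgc

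Across the members, the median identity to the closest protein-coding transcript was 95.9% and the lowest was 70.9%. Identity was at least 95% for 169 members and under 90% for 62. The whole of 13 members was identical to a stretch of a protein-coding transcript, among them Rps12-ps3, Rps23-ps1, Rpl31-ps8 and Rpl27-ps3. The closest coding gene was the named parent for 291 members and another gene for 9. A 31-base word (31-mer) was called unique when it occurs in the transcripts of no other gene on either strand. The median member had 39.7% unique 31-mers, 128 members had over 50%, and 37 had none. Over its 311 bases Rpl36-ps2 had 21.4% unique 31-mers, Rpl31-ps24 had 82.0%, and Rpl28-ps2 had 85.1%, although only 41.2% of Rpl28-ps2 aligned to Rpl28. The longest open reading frame reached at least 90% of the closest coding sequence in 116 members, and fell under 50% of it in 121. A frame counted only with its stop codon inside the annotated transcript, so the 121 include copies whose annotation ends before the stop. Rps23-ps1, identical to Rps23 over its 425 bases, was given 10.5%. Rps13-ps2, identical to Rps13 over its 453 bases, was given 5.3%.

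Each library was quantified with 2 programs, RSEM and kallisto, and levels are in TPM, a transcript abundance that corrects for length and depth. RSEM assigned 29400104 and 17789543 counts to genes in replicates 1 and 2, and kallisto assigned 39148298 and 31973373. By RSEM all 8 macrophage markers examined reached 1 TPM in both libraries and the 3 T cell markers were at 0, while kallisto gave the T cell markers at most 0.154 TPM. No B cell, erythroid, neutrophil or stromal marker (3 each) reached 1 TPM by either program. In bulk RNA, a low level per cell and a level in few cells cannot be told apart.

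Most ribosomal protein pseudogenes had no counts. RSEM gave 201 members 0 counts in both libraries, kallisto 181, and both programs 167. These are 67.0% and 60.3% of the members, against 59.5% and 41.4% of all genes and 79.4% and 67.9% of the other processed pseudogenes. Since 3 counts is the limit that a count of 0 allows, such a member could still hold up to 0.102 and 0.169 CPM (counts scaled to library size) by RSEM in replicates 1 and 2, counting error only. At least 1 TPM in both libraries was reached by 22 of 300 members by RSEM, 7.33%, against 18.6% of all genes. By kallisto it was also 22 of 300, against 21.5% of all genes. The shares of the other processed pseudogenes were 3.74% by RSEM and 5.15% by kallisto, and all 60 parents reached this level by both. The programs shared 15 of these members, and 7 more passed by each program alone, so that 29 passed by either. At least 10 counts in both libraries were held by 26 members by RSEM and 42 by kallisto, 8.67% and 14.0%, against 25.3% and 40.6% of all genes and 4.74% and 11.0% of the other processed pseudogenes.

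Summed over all members, the RSEM level was 102.1 TPM in replicate 1 and 149.6 in replicate 2, and the kallisto level was 102.6 and 160.6. The parents summed to 1426 and 1475 TPM by RSEM and to 676 and 884 by kallisto. Members took 0.00425% and 0.00586% of gene counts by RSEM and 0.00912% and 0.0101% by kallisto. The kallisto share is the higher in both libraries, and the spread between replicates (SD 0.00114 and 0.000698 percentage points, n = 2) is smaller than that gap. The 5 highest members held 32.0% of the summed RSEM TPM and 38.2% of the kallisto TPM.

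Rpl36-ps2 had the highest mean of the 2 libraries by RSEM, with 13.5 TPM in replicate 1 and 9.23 in replicate 2, and kallisto gave 10.2 and 12.8. Rpl36 is a large-subunit protein, and this copy lies at chr11:76601319-76601629 in an intron of Abr, on the opposite strand. Its parent had 13.2 and 8.93 TPM by RSEM, close to the copy, and 14.6 and 17.4 by kallisto, above the copy in both libraries. Rps23-ps1, a copy of a small-subunit gene that works at the decoding centre, had 6.53 and 11.2 TPM by RSEM and 6.15 and 10.9 by kallisto. The programs gave nearly the same TPM although none of its 31-mers is unique. On counts they differed. The Rps23 members, of which only Rps23-ps1 had counts, had 2.22 and 3.36 CPM by RSEM and 4.23 and 5.65 by kallisto. Rpl31-ps8, identical to a stretch of the Rpl31 transcript, had 6.70 and 10.8 TPM by RSEM and 3.83 and 5.73 by kallisto. Rpl36a-ps2, also without unique 31-mers, had 2.58 and 9.36 TPM by RSEM and 1.73 and 4.39 by kallisto. Replicate 2 was the higher by both programs.

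Drifted copies with their own sequence followed in the order of mean RSEM TPM. Rps2-ps9, in an intron of D17Wsu92e, had 4.18 and 6.46 TPM by RSEM and 2.54 and 5.34 by kallisto. Rpl26-ps4, in an intron of Med15, a subunit of the Mediator complex, had 3.86 and 6.01 by RSEM and 3.08 and 6.69 by kallisto. Rpl31-ps24, in an intron of Plekhm3 with 90.3% identity to Rpl31, had 3.32 and 6.50 by RSEM and 6.39 and 10.8 by kallisto. In all 3 the copy lies opposite to the strand of the gene around it, and replicate 2 was the higher by both programs. Rps2-ps11 in Usp4, Rpl23a-ps2 in Rabep1 and Rpl30-ps3 in Fnbp4 had between 2.85 and 5.78 TPM by RSEM, and the genes around them had between 17.2 and 94.8 TPM. Rps16-ps2, identical to a stretch of Rps16, had 3.02 and 4.50 TPM by RSEM and 2.15 and 5.08 by kallisto. Rps27-ps1, in an intron of Ino80d and with 58.8% unique 31-mers, had 1.31 and 0.89 TPM by RSEM on 3 counts and 1 count, and 2.52 and 7.71 by kallisto.

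**Figure D1:**
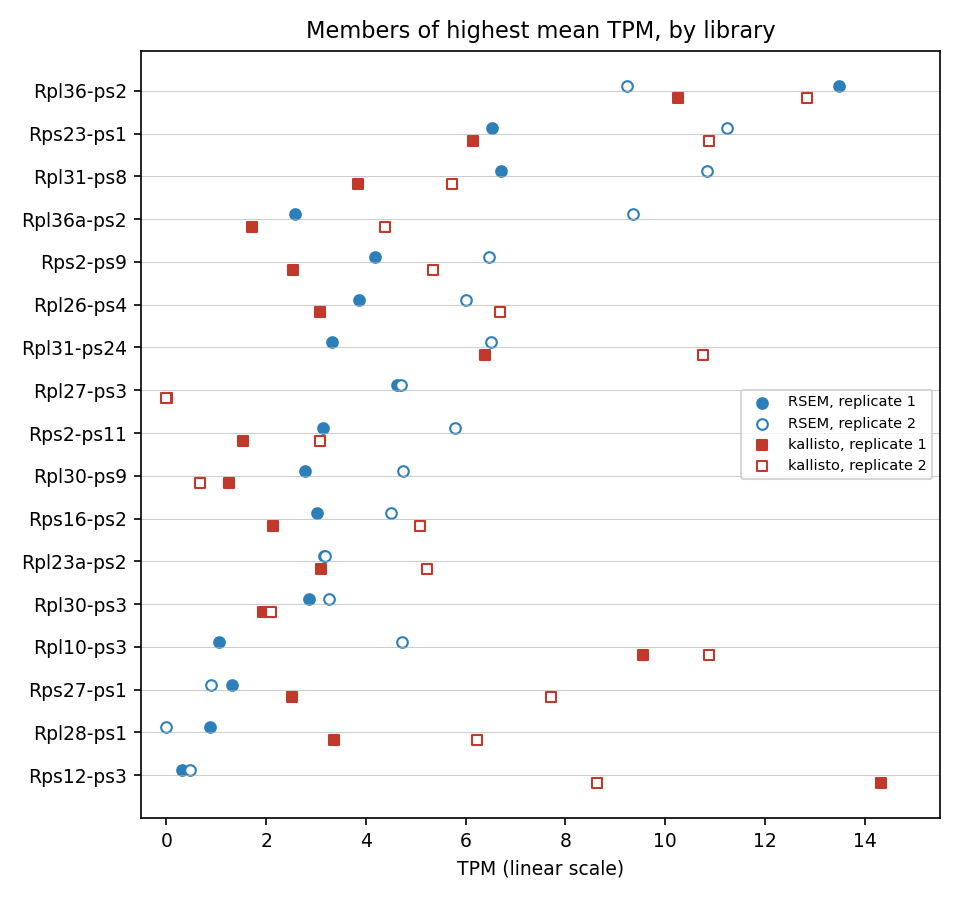
TPM (linear axis) of the 15 members of highest mean RSEM TPM and the 10 of highest mean kallisto TPM, without repeats and without 1 member that is left out. Circles are RSEM and squares kallisto, filled for replicate 1 and open for replicate 2. Rps12-ps3 lies at 14.3 and 8.64 TPM by kallisto and under 1 TPM by RSEM, while Rpl27-ps3 lies at 4.62 and 4.71 by RSEM and near 0 by kallisto.

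The programs were compared by the log2 ratio of kallisto over RSEM, on TPM plus a pseudocount of 1, for members of at least 1 TPM in both libraries by either program. A member counted as different when the ratio was past 2-fold in the same direction in both libraries. Of 29 members, 4 were higher by kallisto, 13.8%, against 18.2% of all genes tested. Another 3 were higher by RSEM, 10.3%, against 1.3% of all genes tested. The median ratio was -0.10 for the members, -0.31 for all genes and -0.87 for the 60 parents. The median of all genes thus lay towards RSEM on this scale, although more of them were past 2-fold towards kallisto, 18.2% against 1.3%. Of the parents, 5 were past 2-fold lower by kallisto and none higher. On CPM the filter was at least 1 CPM instead, and 20 members passed it. Their median was 0.51 and that of all genes 0.22, so the sign of both medians depends on the unit and the genes it lets pass. All 7 members named next kept their direction in each of the 5 units and pseudocounts. Among them, Rpl19-ps11 was no longer past 2-fold on CPM, at -0.69, and Rpl10-ps3 was not past it in both libraries on TPM rescaled over protein-coding genes and pseudogenes, at a mean of 1.84.

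Rps12-ps3 had the largest ratio at a pseudocount of 1, while at 0.1 Rpl28-ps2 and Rpl27-ps3 lay further from 0, as did Rpl27-ps3 on the rescaled TPM. RSEM gave Rps12-ps3 4.26 and 3.34 counts, 0.32 and 0.47 TPM, and kallisto gave it 516 and 184 counts, 14.3 and 8.64 TPM. For the parent Rps12, RSEM gave 910 and 398 counts and kallisto 453 and 378. The mean log2 ratio of Rps12-ps3 was 3.13. The annotation lists it as protein-coding, and none of its 31-mers is unique. Parent and 24 members together came to 32.1 and 23.8 CPM by RSEM and 26.5 and 19.6 by kallisto, a log2 ratio of -0.28 for the family against -1.17 for the parent alone. In this family the programs differed less on the sum than on the parent.

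Rpl10-ps3 was also higher by kallisto. RSEM gave it 28.2 and 67.0 counts (1.06 and 4.72 TPM), and kallisto 707 and 437 counts (9.54 and 10.9 TPM). Rpl10, whose protein joins the large subunit late in its assembly, had 2032 and 987 counts by RSEM and 1502 and 1059 by kallisto. In CPM this parent was lower by kallisto in both libraries, at 38.4 and 33.1 against 69.1 and 55.5. The family's log2 ratio in CPM was -0.33, against -0.80 for the parent. The family ratio was also closer to 0 for Rpl27, at 0.55 against 0.81 for the parent. On the mean of the libraries the same held for Rpl28, at 0.25 against -0.40, and for Rpl19, at 0.02 against -0.06. In replicate 1 it did not, at 0.44 against -0.25 for Rpl28 and 0.03 against -0.01 for Rpl19. The mean family ratio was not closer to 0 in every family with a member that differed. It was -0.22 for the Rps6 family against -0.12 for Rps6. Only 3.39% of the 31-mers of Rpl10-ps3 are unique. Rpl28-ps1, which has no unique 31-mer, had 0.88 and 0 TPM by RSEM and 3.37 and 6.22 by kallisto.

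Rpl28-ps2 differed from these in sequence. RSEM gave it 0 counts in both libraries, while kallisto gave it 165 and 112 counts, 3.74 and 4.42 TPM. It overlaps no other gene, at chr3:83686721-83687274, and 85.1% of its 31-mers are unique, so sharing with Rpl28 is limited to a minority of its length. Its log2 ratio of 2.34 rests on the pseudocount and is no fold change. Which genome or transcript sequences the reads came from was not tested.

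In the other direction, Rpl27-ps3, identical to a stretch of Rpl27, had 4.62 and 4.71 TPM by RSEM and 0.0234 and 0 by kallisto. Rps6-ps4, a copy of the substrate of the S6 kinases, had 1.66 and 3.31 TPM by RSEM and 0 and 0.149 by kallisto. Rpl19-ps11, 99.8% identical to Rpl19, had 1.08 and 1.61 TPM by RSEM and 0 and 0.213 by kallisto. None of the 3 has more than 3.21% unique 31-mers. Of the 7 members that differed, 4 came from the 8 tested members without unique 31-mers, 2 from the 13 with up to 50% and 1 from the 8 with more, and these numbers are too small for an order.

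**Figure D2:**
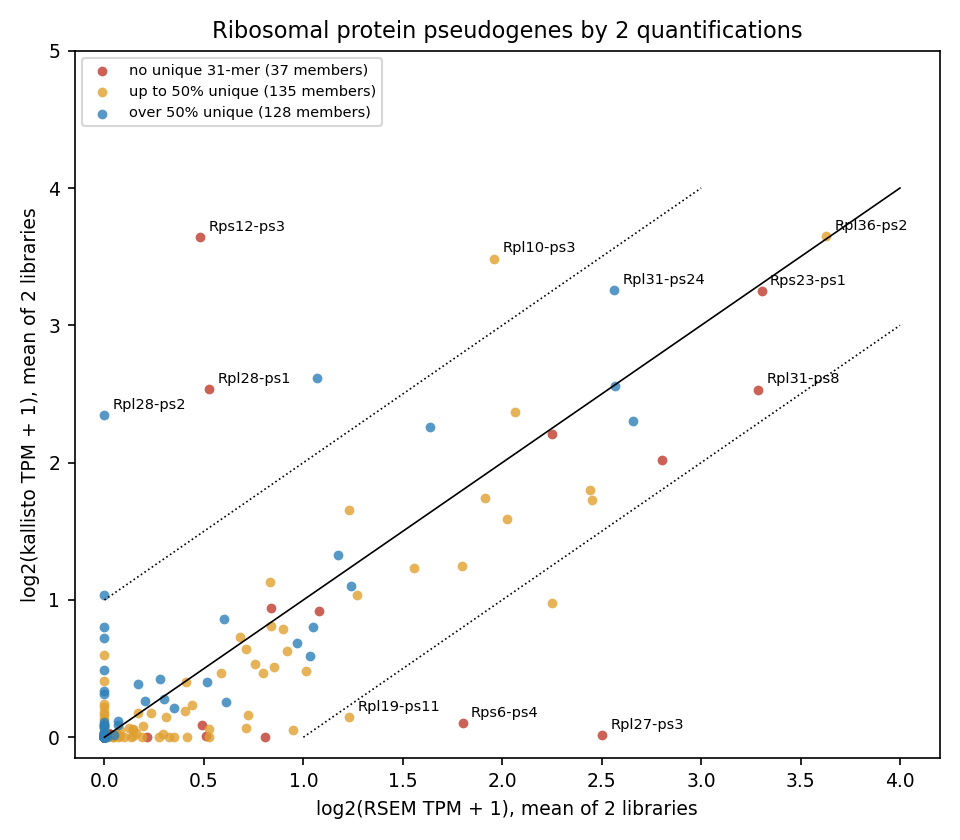
Mean TPM of the 300 members by RSEM (x axis) and kallisto (y axis), both as log2(TPM + 1), coloured by the percent of 31-mers that no other gene shares. The solid line marks equal values and the dotted lines 2-fold; a point past a dotted line counted as different only where both libraries were past it, which left 4 members above and 3 below.

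RSEM also gives a credibility interval for each TPM, which widens with few counts and where reads could belong elsewhere, and these were not separated here. Among members of 1 to 100 TPM in both libraries, 6 of 22, 27.3%, had a lower bound under 1 TPM in both libraries, against 2.05% of all such genes, 14.8% of the other processed pseudogenes and 0 of 60 parents. These groups were not matched by level within that range, and a level near 1 TPM has a bound under 1 more easily. Of the 22 members, 3 reached 5 TPM in both libraries. The 6 were Rpl19-ps11, Rpl27-ps3, Rpl30-ps9, Rpl36-ps12, Rps2-ps10 and Rps6-ps4, of which 5 were among those below 1 TPM by kallisto in at least 1 library. The interval of Rpl27-ps3 in replicate 1 ran from 0.000107 to 9.40 TPM around its 4.62 TPM. That of Rpl36-ps2 ran from 10.3 to 16.7 around 13.5. The median width over the level was 0.944 for members and 0.254 for parents.

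The share of members at 1 TPM was higher inside genes of at least 1 TPM than outside any gene. This split by the gene around each member was chosen after the values had been seen. No other gene overlapped 207 members, 56 lay in an intron on the opposite strand, 27 in an intron on the same strand and 10 across an exon. Of the 41 members inside or across a gene of at least 1 TPM, 12 reached 1 TPM in both libraries by RSEM, 29.3%, and 14 by kallisto, 34.1%. Of the 207 with no overlapping gene, 4 did so by each program, 1.93%. Of the 52 whose overlapping gene was under 1 TPM, 6 did so by RSEM and 4 by kallisto. Any count at all was found in 36 of the 41 by RSEM and in 46 of the 207.

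The other processed pseudogenes gave the same contrast, with 304 of 1027 inside or across a gene of at least 1 TPM by RSEM, 29.6%, and 56 of 6984 with no overlapping gene, 0.802%. Inside or across a gene under 1 TPM the members' 11.5% stood above the 0.621% of the others by RSEM, and 7.69% above 2.54% by kallisto. The members of this class that passed by either program had at most 3.21% unique 31-mers. None of these shares was tested. The sources used here do not say whether counting used strand, so reads of the surrounding gene's intron on either strand cannot be told apart from reads of the copy. Of the 16 members at 1 TPM by either program in a gene of at least 1 TPM, 10 lay opposite to it and 6 on its strand.

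**Figure D3:**
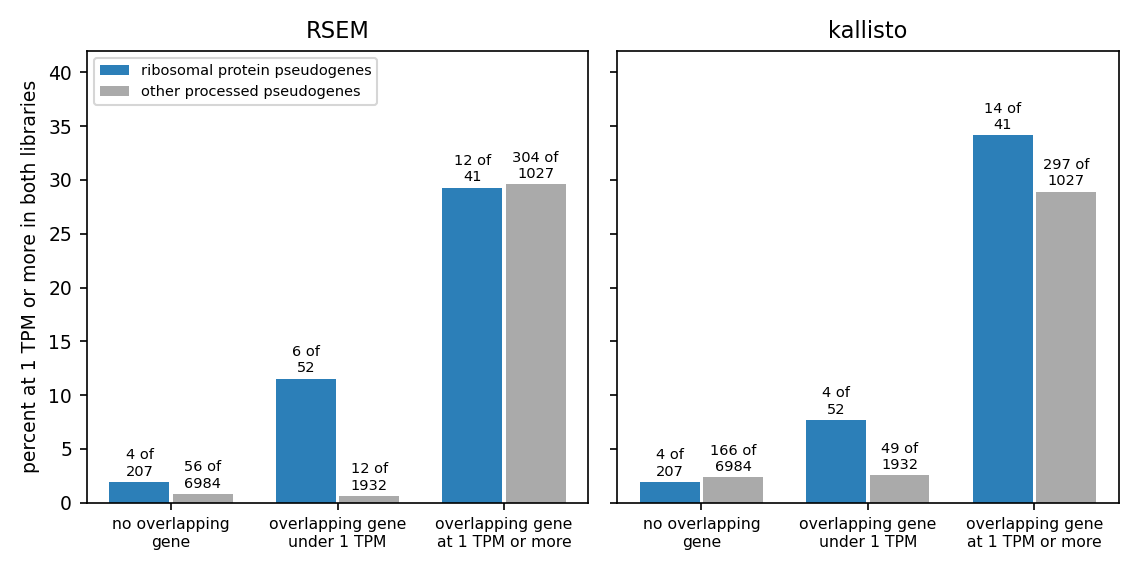
Percent of pseudogenes at 1 TPM or more in both libraries (y axis, from 0) by the gene that overlaps them, for RSEM (left) and kallisto (right). Blue bars are the 300 ribosomal protein pseudogenes and grey bars the other processed pseudogenes, with the counts above each bar; the right-hand class is highest for both, at 29.3% and 29.6% by RSEM.

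The 29 members that passed by either program were then grouped by sequence and position, a grouping chosen after the values had been seen. Of the 15 with over 20% unique 31-mers, 13 lay inside or across a gene of at least 1 TPM, and the others were Rpl28-ps2 and Rpl30-ps5. Of the 14 with 20% or less, 3 did. Among members with over 50% unique 31-mers, none of the 113 outside such a gene passed by RSEM and 2 passed by kallisto, against 3 and 6 of the 15 inside one. Rpl36a-ps4, all of whose 31-mers are unique and which is 74.8% identical to Rpl36a, lies in an intron of Map3k20, a stress-activated kinase. It had 0.96 and 3.26 TPM by RSEM and 2.26 and 5.31 by kallisto. Members with an open frame of at least 90% of the closest coding sequence passed in 13 of 116 cases by RSEM and 10 by kallisto, and the other 184 in 9 and 12. The 184 include copies such as Rps23-ps1, whose frame has no stop codon inside its annotation, so they are not all broken frames.

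The families differed in how much of their level lay on the pseudogenes. The median family had 2.51% of its summed TPM on its members by RSEM and 1.45% by kallisto. Over 10% in both libraries was reached by 13 families by RSEM and 18 by kallisto. On TPM, the Rpl31 members exceeded their parent in both libraries and by both programs, with 51.1% and 60.6% by RSEM and 68.3% and 69.4% by kallisto. On counts, which do not correct for length, the direction turned: the Rpl31 members had 2.94 and 4.42 CPM by RSEM against 8.75 and 11.5 for the parent, and 6.34 and 7.98 by kallisto against 7.41 and 9.31. By TPM the Rpl36 members took 53.3% and 53.7% by RSEM and 45.0% and 47.2% by kallisto. Rpl36a members took 39.9% and 74.6% by RSEM and 51.3% and 67.6% by kallisto, a wide spread between replicates. On counts the members of both families lay below their parent in both libraries and by both programs. By RSEM the Rpl36 members had 2.635 and 1.573 CPM against 3.589 and 2.137 for the parent. The Rpl36a members had 0.594 and 1.829 CPM by RSEM against 2.773 and 1.881.

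The Rps12 family had 8.29% and 13.0% on its members by RSEM and 76.1% and 60.1% by kallisto, and the Rpl27 family 27.8% and 30.5% against 0.666% and 1.61%. In both families the programs lay further apart than the replicates. Most members of the largest families had no counts. Of the 24 Rpl31 members 20 had 0 counts by RSEM, as did 19 of the 24 Rps12 members. None of the 15 Rpl21 members or the 14 Rps19 members reached 1 TPM in both libraries by either program.

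**Figure D4:**
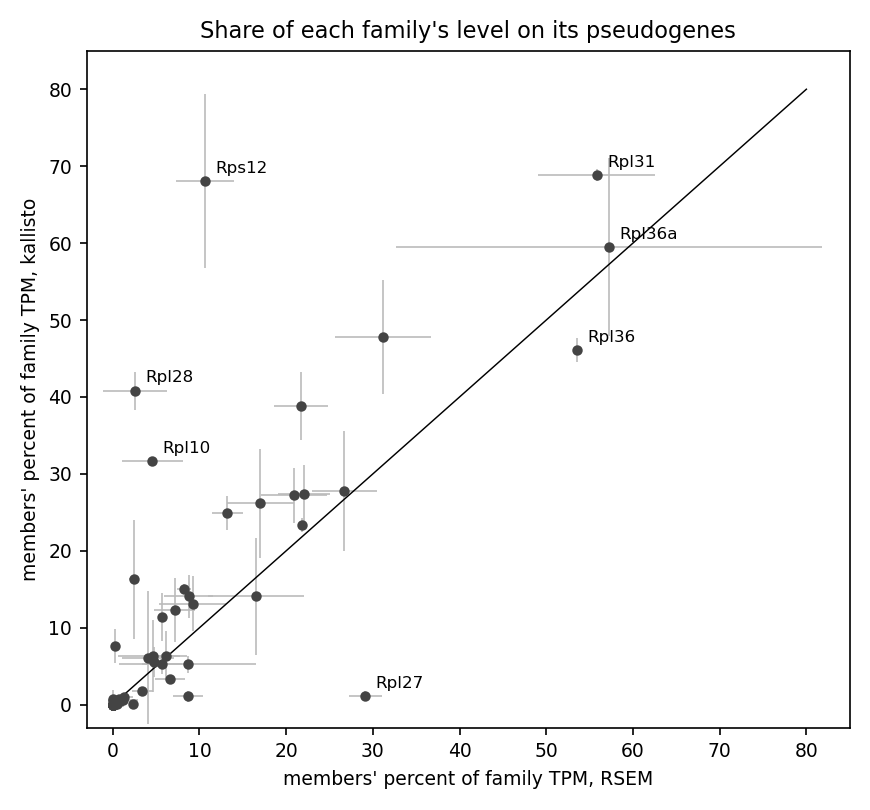
Percent of each family's TPM (parent plus members) that lay on its pseudogenes, by RSEM (x axis) and kallisto (y axis). Points are means of 2 libraries for 60 families, bars are SD (n = 2) and the line marks equal values; Rps12, Rpl28 and Rpl10 lie far above it and Rpl27 far below.

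Replicates were compared by the log2 ratio of replicate 2 over replicate 1 on TMM-scaled counts, for members with a mean of at least 10 counts. By RSEM, 4 of 28 members were past 2-fold higher in replicate 2, against 7.52% of all genes, and 1 was lower, against 5.85%. The members' median was 0.29 and that of all genes 0.01, and the members' median was 0.25 with DESeq2 size factors. The other processed pseudogenes had a median of 0.31 by RSEM, with 20.3% past 2-fold higher. By kallisto the median of 48 members was 0.02, with 3 higher (background 10.9%) and 2 lower (background 5.93%), and it was -0.01 with DESeq2 size factors. The 60 parents had a median of -0.28 by RSEM.

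Some members were counted mostly in 1 library by at least 1 program. Rpl15-ps3, identical to a stretch of Rpl15, had 28.8 RSEM counts in replicate 1 and 0 in replicate 2, and kallisto gave it 0 in both. Rpl10a-ps1 had 10.6 and 19.5 counts by RSEM, and by kallisto nearly 0 and 57.7. On these scaled counts Rpl10-ps3 had a log2 ratio of 1.79 by RSEM and -0.78 by kallisto, while its TPM was the higher in replicate 2 by both, so the direction by kallisto depends on the unit. Rpl36a-ps2 was the higher in replicate 2 by both, at 1.52 and 0.67. For Rpl36-ps2 the ratios were -0.91 and -0.36, although its kallisto TPM was the higher in replicate 2.

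Of the 13 members that the annotation calls transcribed or protein-coding, Rpl10-ps3, Rps2-ps9 and Rps2-ps10 passed 1 TPM in both libraries by RSEM, and Rpl10-ps3, Rps12-ps3 and Rps2-ps9 by kallisto. Rps26-ps1, in an intron of Wwp2, a ubiquitin ligase, had 1.00 and 0.73 TPM by RSEM. Rpl9-ps1, protein-coding by annotation, had 0.40 and 0.65 TPM by RSEM and 0.170 and 0.223 by kallisto. Rpl36-ps4 and Rpl36a-ps1, also protein-coding, and Rpl10-ps1, transcribed, had 0 counts in both libraries by both programs. Rpl19-ps3, a transcribed pseudogene with 96.1% unique 31-mers, had 0 counts by RSEM and 66.7 and 122.5 by kallisto.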

How the data were processed

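The authors deposited, for each of the 2 libraries, gene tables of expected counts, TPM and FPKM, and transcript tables of estimated counts and TPM. Per the file headers, the first have the columns that RSEM writes and the second those that kallisto writes. The deposited signal columns used are the bounds of credibility intervals of TPM and FPKM, per the file headers. The assembly is mm10, per the labels, and the gene identifiers matched GENCODE M21. Aligner, program versions and strand setting: not given in the sources used here.

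Transcript values were summed per gene. Rows that name no gene, 0.766% and 0.272% of expected counts, were left out. Expected counts were rounded, scaled by TMM (edgeR 4.0.16) on genes of mean count at least 10, and given a prior count of 0.5. Program ratios used a pseudocount of 1 TPM. Closest transcripts came from BLAST+ 2.17.0 (E-value at most 1e-10), and 31-mers were compared over all GENCODE M21 transcripts. The ratio, 31-mer and open frame code was tested on simulated data. Total gene counts are in the report; limits from a count of 0 reflect counting error alone, as the labels mention no molecular identifiers. Posterior means, FPKM intervals, other filters, units and scalings were tried as alternatives.

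Named were the 15 members of highest RSEM and 10 of highest kallisto mean TPM, the 5 largest program ratios each way, the 3 largest replicate ratios each way, and members of other biotypes; some are only counted, and 1 is not reported here. The members and lists were chosen with earlier results of these data known. Rpl36a-ps4, Rpl30-ps5 and Rpl36-ps12 lie outside that rule and were named after their values were seen.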

Additional observations from a re-analysis of the deposited data

How the results depend on the processing

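Of 77 alternatives to 17 values, 53 left the value within its replicate spread or, for a count, within 1.5 times, and 24 moved it. The overlap split, its alternatives and the removal of 2 members were chosen after seeing the data. For the members' shares of gene TPM and counts, leaving out 1 replicate could not count as a move. The mean of 2 replicates always lies within their SD of each, so these alternatives among the 53 say nothing about stability. Members at 1 TPM in both libraries were 37 at a level of 0.5 TPM by RSEM, and 3 by RSEM and 5 by kallisto at 5 TPM. At least 3 counts were held by 46 members by RSEM. Rescaling TPM over protein-coding genes and pseudogenes raised the members' share to 0.0437% by RSEM and 0.0393% by kallisto, from 0.0126% and 0.0132%. It let 58 members pass the filter, against 29 in the main setting, of which 8 were higher by kallisto and 11 by RSEM. Posterior mean TPM gave a share of 0.0184% and 8 of 35 members higher by RSEM. With processed pseudogenes only, 2 members were higher by kallisto. Without Rpl10-ps3 and Rps12-ps3 the kallisto count share was 0.00708%, from 0.00961%. Without a filter on counts 24 of 95 members were higher and 25 lower in replicate 2. The share of all genes past 2-fold was not counted without that filter, nor on rescaled or posterior mean TPM. On kallisto counts 2 of 48 members were lower, against 5.93% of all genes. Family shares on counts had a median of 1.33% by RSEM. FPKM intervals left 2 members with a lower bound under 1. The cause of these moves was not tested. Rn7sk, a nuclear marker, had 331746.88 and 314956.96 TPM by RSEM in replicates 1 and 2, and 129000 and 122900 by kallisto. The other processed pseudogenes took 0.2293% and 0.3319% of gene TPM by RSEM, and 14.12% and 18.04% by kallisto. The TPM of the 2 programs thus differed in composition. The part that this has in the levels, thresholds, program ratios and moves on TPM was not tested.

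Leaving out 1 replicate gave 26 to 34 members at 1 TPM by RSEM, 4 to 5 higher by RSEM than by kallisto, a median family share of 2.07% to 2.31%, 13 to 18 members with a lower bound under 1, and 15 to 19 of at least 1 TPM that overlap a gene of at least 1 TPM by RSEM; a level in 1 library is easier to pass than in both. Replicate ratios could not be had without a replicate. No paired analysis was possible because there is 1 group. The depth of replicate 2, 17789543 counts by RSEM, limits members of few counts, and 2 libraries give no test.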
